A study of Mus musculus with 24 samples.

Results

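The comparison described here sets fibroblasts of the Rassf1a line given as knockout (Rassf1a Cre) directly against wild-type fibroblasts that had also received the Cre label (WT Cre). It uses 6 of the 24 libraries of the series, 3 in each group, chosen by the genotype and the Cre name in the sample titles. The series measured gene expression by RNA sequencing in mouse embryonic fibroblasts, connective tissue cells grown from E13.5 embryos, and its question is what the absence of both Vhl and Rassf1a does to genome integrity in the setting of kidney cancer. Its cells belong to 4 genotypes, Rassf1a, Vhl/Rassf1a, Vhl and WT, each with 3 libraries named Cre (given as KO, also for WT) and 3 named GFP (given as control). A Cre recombinase deletes DNA between its target sites, and GFP is a fluorescent protein that serves as its control. Setting Cre against Cre keeps the recombinase on both sides, but the Rassf1a alteration and any other difference between the Rassf1a and the WT line cannot be told apart in this contrast. The labels give neither the altered exons, nor the strain, nor how Cre or GFP was delivered, nor the number of embryos or cultures behind the libraries. Where libraries came from one culture, the p-values cover only the spread among these libraries, which may be technical.

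Rassf1 encodes a scaffold protein of the Ras association domain family, and its longer form, RASSF1A, binds microtubules and the Hippo kinases that restrain the transcriptional co-activator YAP. In human tumours, clear cell kidney cancer included, this form is often lost through methylation of the CpG-rich promoter from which it starts. On mouse chromosome 9 the gene Zmynd10 lies directly before Rassf1 on the same strand. ZMYND10 helps to assemble the dynein arms that move motile cilia, and it is not known as a fibroblast gene.

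The starts of both genes are shown because Zmynd10, described below, sits at this junction. Other genes differed more between Rassf1a Cre and WT Cre. Each window holds the 250 bases before a start in RefSeq on GRCm38.p6, plus strand, with every CpG in capitals. Zmynd10 ends 235 bases before the first start of Rassf1, so that the first 15 bases of the first Rassf1 window still belong to Zmynd10.
Zmynd10, chr9:107547054-107547303: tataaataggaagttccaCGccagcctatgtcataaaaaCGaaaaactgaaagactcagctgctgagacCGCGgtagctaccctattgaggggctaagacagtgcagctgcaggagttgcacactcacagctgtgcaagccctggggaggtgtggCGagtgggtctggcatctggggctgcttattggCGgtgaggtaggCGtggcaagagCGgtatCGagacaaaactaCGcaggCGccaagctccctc
Rassf1, first start, chr9:107551305-107551554: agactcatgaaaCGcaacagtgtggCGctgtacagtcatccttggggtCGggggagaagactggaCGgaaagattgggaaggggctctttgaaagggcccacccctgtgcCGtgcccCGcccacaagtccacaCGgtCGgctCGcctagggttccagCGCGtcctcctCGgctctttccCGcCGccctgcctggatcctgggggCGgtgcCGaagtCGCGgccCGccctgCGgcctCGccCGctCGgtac
Rassf1, second start, chr9:107554333-107554582: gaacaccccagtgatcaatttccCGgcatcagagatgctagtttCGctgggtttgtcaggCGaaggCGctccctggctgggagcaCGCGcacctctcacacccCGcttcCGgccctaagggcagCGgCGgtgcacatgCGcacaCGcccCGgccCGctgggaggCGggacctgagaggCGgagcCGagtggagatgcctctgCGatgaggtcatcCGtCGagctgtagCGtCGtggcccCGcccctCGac
The Zmynd10 window holds 11 CpG, the first Rassf1 window 23 and the second 24, against a median of 6 over 32851 promoter windows in the table. G and C make up 55.2% of the Zmynd10 window and 67.2% of each Rassf1 window.

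Rassf1 itself (ENSMUSG00000010067, chr9:107551555-107562267) was little lower. Its level was 27.1, 27.5 and 25.2 CPM (counts scaled to a common library size) in Rassf1a Cre, against 30.3, 33.4 and 32.3 CPM in WT Cre, and the groups did not overlap. The log2 fold change was -0.27 with a standard error (SE) of 0.09, and the adjusted p of 0.0549 in edgeR's quasi-likelihood test missed the threshold of 0.05. That p lay under the threshold in 5 of the alternative fits, between 0.00261 and 0.0458. Between Rassf1a GFP and WT GFP the log2 fold change of Rassf1 was nearly the same, at -0.25 (adjusted p = 0.0640). Between Vhl/Rassf1a Cre and Vhl Cre it was 0.05 (adjusted p = 0.798). Counts of a whole gene add up every transcript form, and reads of exons that remain are still counted, so this level does not check the knockout label. Vhl, the other altered gene of the series, had 24.9 to 26.1 CPM in Rassf1a Cre and 22.7 to 24.4 CPM in WT Cre, with an adjusted p of 0.491.

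Zmynd10 (ENSMUSG00000010044, chr9:107547298-107551319) was higher in the Cre libraries of cells with an altered Rassf1a. It reached 1.26, 0.949 and 1.39 CPM in Rassf1a Cre, from 48, 37 and 78 counts, against 0.171, 0.338 and 0.111 CPM in WT Cre, from 6, 13 and 4 counts. All 3 Rassf1a Cre libraries stood above all 3 WT Cre libraries, by 5.69-fold in the fit (log2 fold change 2.51, SE 0.33, adjusted p = 8.83e-06). Between the GFP libraries the order was opposite, with 0.145, 0.106 and 0.142 CPM in Rassf1a GFP and 0.230, 0.648 and 0.235 CPM in WT GFP (log2 fold change -1.48, adjusted p = 0.0214). In the other pair of Cre groups it was again higher, at 1.15, 1.03 and 0.951 CPM in Vhl/Rassf1a Cre and 0.355, 0.398 and 0.288 CPM in Vhl Cre (1.58, adjusted p = 0.000504). The GFP libraries of the Vhl/Rassf1a line held 0.250 to 0.299 CPM. Within the Rassf1a line itself, Cre stood above GFP by 3.17 on the log2 scale (adjusted p = 1.62e-05), in a comparison where 65 of 16573 genes (0.392%) passed.

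Of 21 tested genes of motile cilia and dynein arms, Zmynd10 included, 4 were higher and none lower (19.0%). Among all genes 7.09% were higher. Without WT Cre replicate 1 the count was 2. The median log2 fold change of the list was 0.05, and 8 of the 21 lay below 0. Its sums overlapped, with 90.7 to 97.4 CPM in Rassf1a Cre and 85.6 to 93.2 CPM in WT Cre. Between the GFP libraries 2 were higher and 1 lower. Between Vhl/Rassf1a Cre and Vhl Cre 1 was higher and 2 lower. Dnah11, a dynein heavy chain of the outer arm (1.69), differed by 1.98 between the GFP libraries as well. Dnaic2, an intermediate chain of the same arm, was higher by 0.93 (adjusted p = 0.0155) and differed by -0.13 between the GFP libraries. Rsph9, a part of the radial spoke head, was higher by 0.56. Dnaic2 did not pass without WT Cre replicate 1, WT Cre replicate 3 or Rassf1a Cre replicate 3, and Rsph9 did not without replicate 1 or 2 of either group.

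The difference between the Cre contrast and the GFP contrast was 3.99 on the log2 scale for Zmynd10 (SE 0.55, adjusted p = 0.00494), and this was the only gene past the threshold in that test, 0.00603% of 16573. At an unadjusted p under 0.05 the same test held 544 genes (3.28%), and the Wald test of DESeq2 also passed 1. Leaving out WT GFP replicate 2, the highest of its group, ended the call, with a difference of 3.32 and an adjusted p of 0.0511. In a fit of only the 4 groups it was 4.00 with an adjusted p of 0.403. Among the 6 Cre libraries of the Rassf1a and Vhl/Rassf1a lines, every value for Zmynd10 lay above all other 18 libraries. This held for 5 other genes (0.0362% of those tested in all), while 4 lay below all other 18 (0.0241%), by a rule chosen after values were seen.

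**Figure D1:**
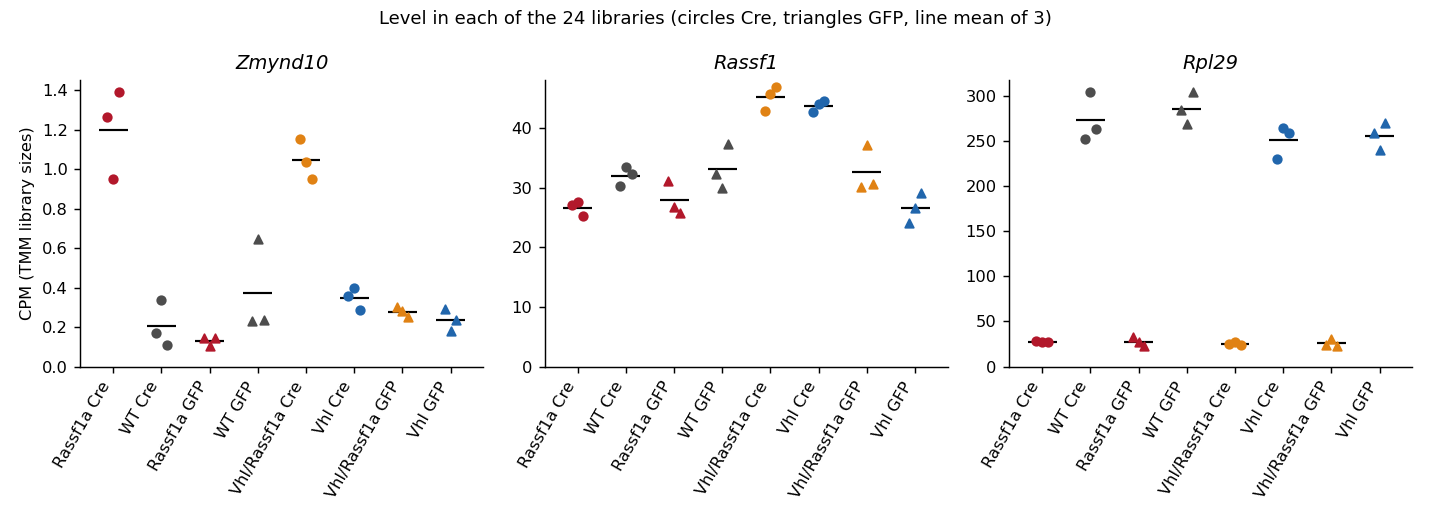
Level of Zmynd10, Rassf1 and Rpl29 in CPM (linear axes from 0) in each of the 24 libraries, grouped by genotype and by Cre (circles) or GFP (triangles), with the mean of 3 libraries as a line. Zmynd10 stands above 0.9 CPM in the 6 Cre libraries of the Rassf1a and Vhl/Rassf1a lines and below 0.7 CPM in the other 18. Rpl29 stands at 22.6 to 32.3 CPM in all 12 libraries of these lines and at 230 to 304 CPM in the other 12.

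Of 20 tested genes listed as neighbours of Rassf1, 4 were higher and 1 lower in Rassf1a Cre, and their median log2 fold change was 0.05. Over all 16573 genes tested, 12.4% passed the threshold and the median was -0.00031. Hemk1, a protein methyltransferase gene, stood at 11.8 to 12.1 CPM in Rassf1a Cre and 6.27 to 6.94 CPM in WT Cre (0.84, adjusted p = 7.09e-06). Nprl2, a subunit of the GATOR1 complex that restrains mTORC1, had 13.6 to 15.1 CPM in Rassf1a Cre and 10.6 to 13.0 CPM in WT Cre (0.31, adjusted p = 0.0269), and it did not pass without replicate 1 or 3 of either group. Lsmem2, a membrane protein gene, was carried by only 11 to 18 counts in Rassf1a Cre and 2 to 3 counts in WT Cre (2.09, adjusted p = 0.00352). Mapkapk3, a kinase downstream of p38, was the lower one, at 24.1 to 25.1 CPM in Rassf1a Cre and 44.7 to 49.2 CPM in WT Cre (-0.93, adjusted p = 1.63e-11). Hemk1 and Mapkapk3 differed in the same direction between the GFP libraries of the 2 lines (0.83 and -0.99) and between the Vhl/Rassf1a and Vhl Cre libraries (0.68 and -0.71), each past the threshold. Nprl2 and Lsmem2 passed in neither, with 0.13 and 1.06 between the GFP libraries and 0.08 and 1.13 between the Vhl/Rassf1a and Vhl Cre libraries. Genes just as close, such as Tusc2 (0.06) and Rbm5 (0.03), did not pass.

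Among the 15 lowest named genes, Rpl29, a protein of the large ribosomal subunit, had the most negative log2 fold change. Its gene lies at -1122 kb from the start of Rassf1. It had 28.3, 27.1 and 26.8 CPM in Rassf1a Cre, against 253, 304 and 263 CPM in WT Cre. The log2 fold change was -3.32 (SE 0.11, adjusted p = 7.55e-16), and the same low level appeared in every library of the Rassf1a and Vhl/Rassf1a lines, GFP libraries included. Whether reads of Rpl29 were counted for near copies of this gene was not tested. In all, 127 genes (0.766%) had no overlap between the 12 libraries of the Rassf1a and Vhl/Rassf1a lines and the 12 of the WT and Vhl lines, 77 higher and 50 lower. They include Mpzl2, a cell adhesion gene (-6.86), and Cpne4, of the calcium-binding copines (-5.65), both of chromosome 9 and both too low in level for the rule on named genes. On chromosome 9 these were 26 of 941 genes (2.76%), and on chromosome 14 they were 20 of 569 (3.51%). Between Rassf1a Cre and WT Cre, 18.0% of the genes of chromosome 9 passed the threshold, against 19.0% on chromosome 14, 18.4% on chromosome 18 and 12.4% over all genes. On chromosome 9, within 1 Mb of Rassf1, the share was 14.1% of 64 genes, and from 1 to 5 Mb 22.1% of 95. From 5 to 20 Mb it was 14.4% of 187, and beyond 20 Mb 18.8% of 595. The share of genes with no overlap between 12 and 12 libraries was 3.12% (2 genes), 5.26% (5), 3.21% (6) and 2.18% (13) in the same order. A link with the distance from Rassf1 was not tested.

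**Figure D2:**
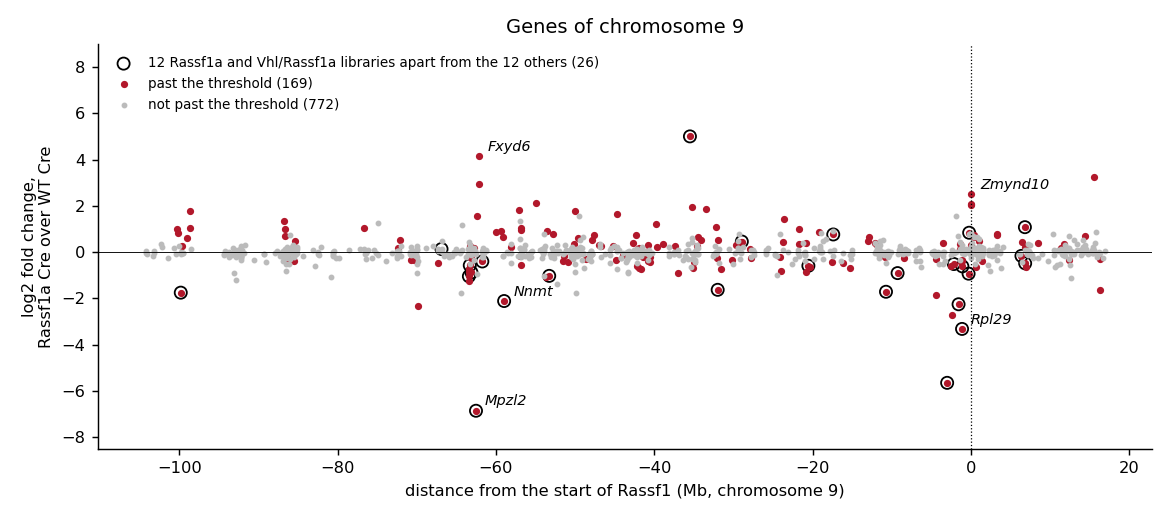
Log2 fold change of Rassf1a Cre over WT Cre for the 941 tested genes of chromosome 9 against their distance from the start of Rassf1 in Mb, with genes past the threshold in red. Circles mark the 26 genes whose 12 values in the Rassf1a and Vhl/Rassf1a lines do not overlap the other 12; they lie along much of the chromosome, with Rpl29 close to Rassf1 and Nnmt and Mpzl2 far from it.

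Across the genome, 2054 genes passed the threshold between Rassf1a Cre and WT Cre, 1175 higher (7.09%) and 879 lower (5.30%). At least a 2-fold difference was fitted for 256 of the higher (1.54%) and 125 of the lower genes (0.754%). Between Rassf1a GFP and WT GFP, a comparison that shares no library with this one, 2664 genes passed (16.1%), 9.39% higher and 6.68% lower. Of the 2054 genes, 1649 (80.3%, or 61.9% of the GFP list) passed in both with the same direction. Only Zmynd10 and Degs2, a sphingolipid desaturase gene (0.55 in the Cre and -0.59 in the GFP libraries), passed in opposite directions. Between Vhl/Rassf1a Cre and Vhl Cre, which also share no library with the 6, 3119 genes passed (18.8%), 9.75% higher and 9.07% lower. Here 546 of the 2054 (26.6%, or 17.5% of the other list) passed in the same direction and 339 in the opposite one. In all 3 comparisons 469 genes passed in 1 direction, 276 higher and 193 lower.

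**Figure D3:**
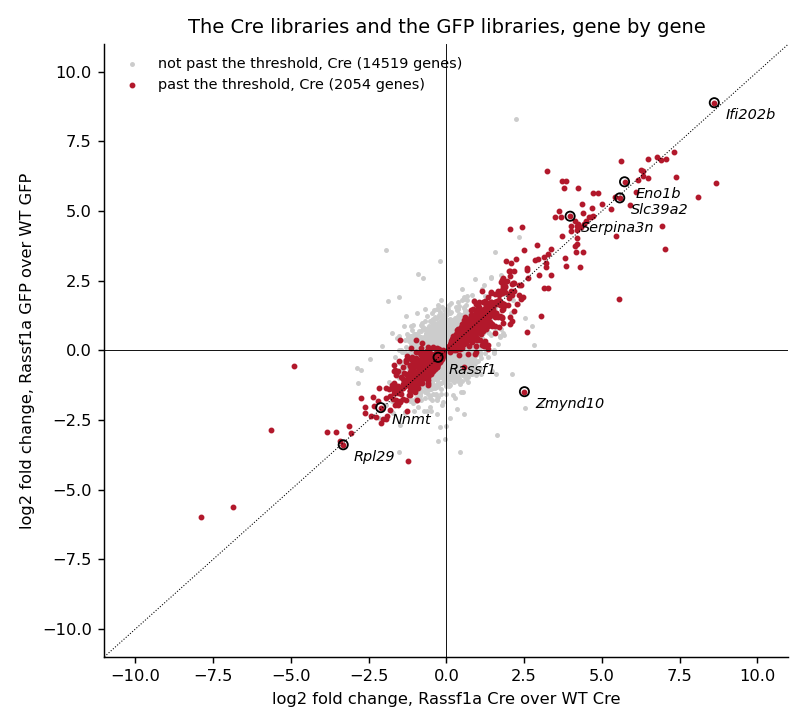
Log2 fold change of Rassf1a Cre over WT Cre (x axis) against that of Rassf1a GFP over WT GFP (y axis) for 16573 genes, with the 2054 genes past the threshold in the Cre libraries in red and the dotted line of equal values. Red points lie along the line, among them Eno1b, Slc39a2 and Rpl29; Zmynd10 lies apart, at 2.51 and -1.48.

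The highest named genes differed by an order of magnitude or more and did so in Cre and GFP libraries alike. Slc39a2, a zinc importer, stood at 20.2, 21.3 and 19.2 CPM in Rassf1a Cre and at 0.543, 0.390 and 0.334 CPM in WT Cre (log2 fold change 5.58, SE 0.14, adjusted p = 1.99e-18). Fxyd6, a regulator of the sodium pump, had 16.6 to 19.0 CPM in Rassf1a Cre and 0.628 to 1.35 CPM in WT Cre (4.14). Serpina3n, a secreted protease inhibitor, had 26.4 to 32.6 CPM and 1.72 to 1.97 CPM in the same order (3.98), and Ucp2, a carrier of the inner mitochondrial membrane, 64.1 to 71.9 CPM and 4.94 to 5.62 CPM (3.71). The groups did not overlap in any of these genes, which was a condition for naming them. Between the GFP libraries the log2 fold change was 5.47 for Slc39a2, 4.65 for Fxyd6, 4.82 for Serpina3n and 4.10 for Ucp2.

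Slco4a1, an organic anion transporter (2.16), Kank4, an actin regulator (2.11), and Msln, a surface protein of mesothelium (2.07), followed. Eln, the elastin of elastic fibres, reached 128 to 133 CPM in Rassf1a Cre and 39.0 to 48.4 CPM in WT Cre (1.59, adjusted p = 5.57e-12). Anxa8, a calcium-dependent membrane-binding protein (1.54), Ednrb, an endothelin receptor (1.45), and Bckdhb, an enzyme of branched-chain amino acid breakdown (1.45), were also among the 15 highest. Gt(ROSA)26Sor, the non-coding transcript of the locus commonly used to insert transgenes, had 21.3 to 25.3 CPM in Rassf1a Cre and 2.94 to 6.55 CPM in WT Cre (2.33, adjusted p = 8.97e-06). Its level in Rassf1a GFP was 12.2 to 29.0 CPM, against 1.49 to 5.77 CPM in the Vhl and Vhl/Rassf1a libraries.

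Eno1b had the highest log2 fold change of the named genes, 5.73, with 276, 278 and 262 CPM in Rassf1a Cre and 4.45, 4.89 and 6.05 CPM in WT Cre. It is a near copy of the glycolytic enolase gene Eno1, which was lower (-0.30, adjusted p = 0.0208), and the sum of the 2 genes differed by -0.08 on the log2 scale. The processed copies Rps13-ps1 (4.32), Rpl3-ps1 (2.64) and Rpl15-ps2 (5.01) were higher too, while their parent genes Rps13 (-0.14), Rpl3 (-0.11) and Rpl15 (-0.13) did not pass, and the sum of each pair differed by -0.07 to -0.04. How reads are split between such copies depends on the counting, so these values are uncertain. Of 924 tested pseudogenes, 83 were higher and 11 lower in Rassf1a Cre (10.2%, against 13.4% of protein-coding genes), and 77 of these calls were at least 2-fold.

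**Figure D4:**
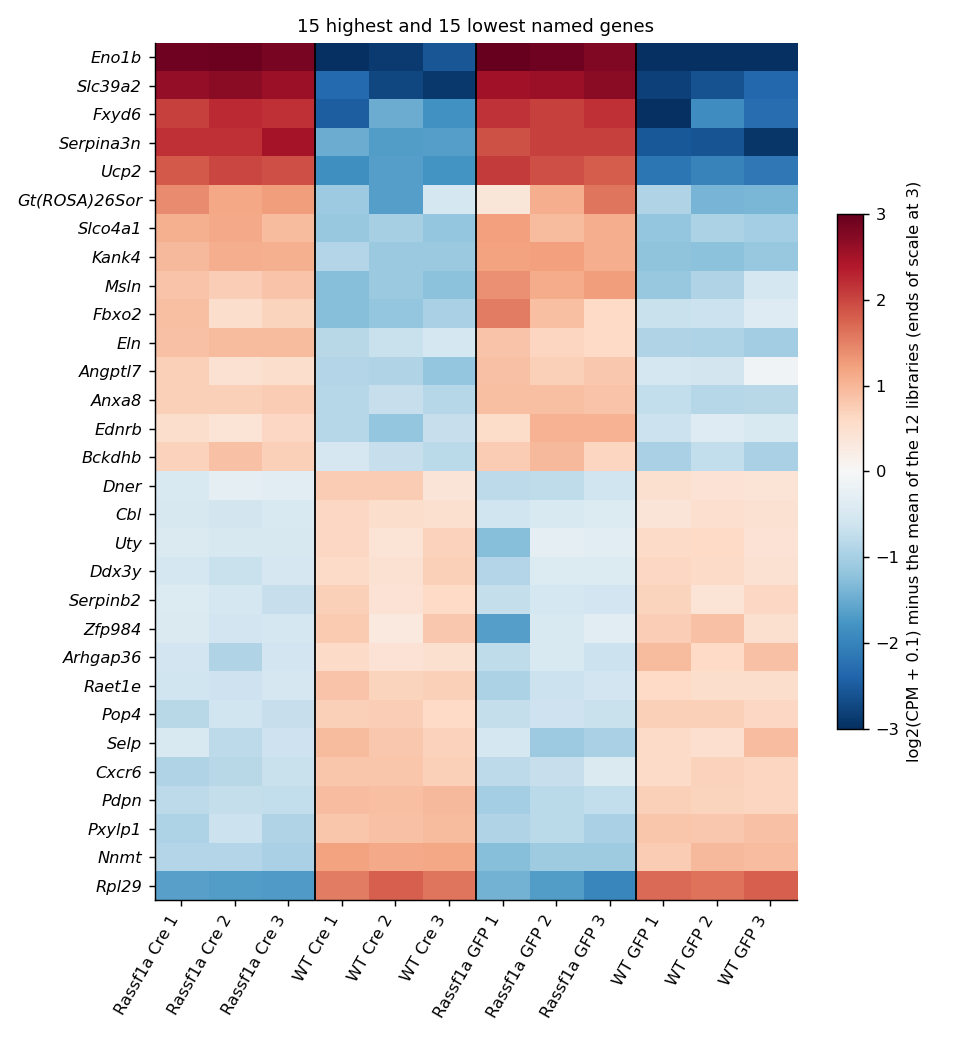
Level of the 15 highest and 15 lowest named genes in the 3 libraries each of Rassf1a Cre, WT Cre, Rassf1a GFP and WT GFP, as log2(CPM + 0.1) minus the mean of the 12 libraries, with red above and blue below that mean. The Rassf1a Cre and Rassf1a GFP columns have the same colours in most genes, and so do WT Cre and WT GFP.

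The lowest named genes after Rpl29 included several surface proteins. Nnmt, the nicotinamide methyltransferase, had 3.60, 3.57 and 3.36 CPM in Rassf1a Cre and 15.5, 14.8 and 15.2 CPM in WT Cre (-2.11, SE 0.09, adjusted p = 2.25e-14). Pdpn, the membrane glycoprotein podoplanin, stood at 50.2, 52.6 and 51.7 CPM in Rassf1a Cre and at 164, 161 and 169 CPM in WT Cre (-1.68, adjusted p = 3.18e-15). For both, the 3 libraries of a group lay close together, while groups without overlap were a condition for naming these genes. Pxylp1, a phosphatase of proteoglycan synthesis (-1.71), Cxcr6, a chemokine receptor (-1.62), Selp, the adhesion molecule P-selectin (-1.46), Pop4, a subunit of RNase P (-1.39), Raet1e, a ligand of the NKG2D receptor (-1.33), and Cbl, a ubiquitin ligase for activated receptors (-1.04), were lower too. In Vhl/Rassf1a Cre against Vhl Cre, Nnmt, Pxylp1, Selp, Raet1e and Cbl were also lower, whereas Cxcr6 (1.12) and Pdpn (0.23) were higher and Pop4 did not pass (0.14).

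In the list of Rassf family and Hippo core genes, 2 of 26 were higher and 3 lower (19.2%, against 12.4% of all genes tested), with a median of -0.04. The 5 calls became 2, both lower, without WT Cre replicate 1, WT Cre replicate 2 or Rassf1a Cre replicate 3, and 3 without Rassf1a Cre replicate 1 or 2. Rassf6, a paralogue linked to cell death, had 6.18 to 7.36 CPM in Rassf1a Cre and 9.88 to 10.8 CPM in WT Cre (-0.64, adjusted p = 0.00069). Rassf3 (-0.23) and Rassf2 (-0.27) were lower as well, and Rassf9 (0.64) and Rassf7 (0.33) higher. The kinase genes of the Hippo core did not pass.

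YAP target genes, which the Hippo kinases keep low, numbered 1 higher and 6 lower of 22 (31.8%, against 12.4% of all genes tested). Their median was -0.07. Ccn2, the matricellular connective tissue growth factor, stood at 507, 517 and 479 CPM in Rassf1a Cre and at 887, 851 and 845 CPM in WT Cre (-0.78, SE 0.07, adjusted p = 2.80e-08). Ankrd1, a muscle ankyrin repeat protein, had 73.5 to 85.0 CPM in Rassf1a Cre and 113 to 130 CPM in WT Cre (-0.61). Neither gene overlapped between the groups. Crim1 (-0.38), F3, the tissue factor that starts clotting (-0.41), Ccn1 (-0.23) and Asap1 (-0.19) were lower, and Nt5e, the surface nucleotidase CD73, was higher (0.87). Between the GFP libraries 2 of the 22 were higher and 9 lower, and between Vhl/Rassf1a Cre and Vhl Cre 1 was higher and 8 lower.

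Of 28 tubulins and microtubule regulators, none was higher and 4 were lower (14.3%, close to the 12.4% of all genes tested). The 4 were Tubb3 (-0.42), Eml1 (-0.30), Map1b (-0.20) and Tuba1a (-0.20). With GC-corrected offsets 3 were higher and 9 lower, and without the 2 deviating GFP libraries 4 were higher and 5 lower. In the list of mitosis and spindle genes 1 of 35 was higher and 5 lower (17.1%), with a median of -0.09. Ttk, the spindle checkpoint kinase MPS1, was higher (0.46, adjusted p = 0.000741), while Dlgap5 (-0.27), Aurka (-0.22) and Prc1 (-0.18), all of the mitotic spindle, were lower. The count of mitotic genes fell to 2 or 3 without WT Cre replicate 1, WT Cre replicate 2, Rassf1a Cre replicate 1 or Rassf1a Cre replicate 3. Between Vhl/Rassf1a Cre and Vhl Cre all 35 were higher, with a median of 0.93. Of 30 DNA replication genes only Rrm2, a ribonucleotide reductase subunit, passed (-0.43).

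Among the lists with at least 15 tested members, the interferon-stimulated genes had the largest share past the threshold. These are antiviral and signalling genes that cells switch on when interferons bind their receptors. Of 38 tested, 25 were higher (65.8%, against 7.09% of all genes tested) and none lower, and the median log2 fold change was 0.85. Isg15, a ubiquitin-like modifier, had 71.4, 58.5 and 73.9 CPM in Rassf1a Cre and 25.6, 38.9 and 23.7 CPM in WT Cre (1.21, SE 0.40, adjusted p = 0.0484). Ifi44 stood at 22.6 to 28.7 CPM in Rassf1a Cre and 9.79 to 11.5 CPM in WT Cre (1.35), and Oasl2, of the oligoadenylate synthetase family, at 37.9 to 52.8 CPM and 15.4 to 23.8 CPM in the same order (1.30). Transcription factors of this response were higher as well, with Stat2 at 0.67 (adjusted p = 0.0147), Irf9 at 0.54 and Irf7 at 1.11. In every one of these genes the lowest Rassf1a Cre value, always that of replicate 2, lay above the highest WT Cre value, also that of replicate 2.

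Many of these calls lay near the threshold. Without WT Cre replicate 1 there were 5 of them, without WT Cre replicate 3 there were 9, without Rassf1a Cre replicate 1 there were 8 and without Rassf1a Cre replicate 3 there were 6. Replicate 1 of Rassf1a GFP and replicate 2 of Vhl/Rassf1a GFP stand apart from the other libraries, and in the fit without this pair 35 were higher. Between Rassf1a GFP and WT GFP 23 of the 38 were higher and none lower, and between Vhl/Rassf1a Cre and Vhl Cre none was higher and 5 were lower. The markers of macrophages, cells with strong interferon responses, had 0 of 6 past the threshold. They summed to 6.16 to 8.12 CPM in Rassf1a Cre and 7.68 to 8.25 CPM in WT Cre. Among these markers Adgre1 had at most 1 count in any of the 6 libraries, Ptprc 0 to 7 and Csf1r 39 to 69. The part of macrophages in the result was not tested. Of 19 antigen presentation genes 4 were higher and none lower (21.1%, against 12.4% of all genes tested). The 4 were H2-K1 (0.54), H2-D1 (0.45) and H2-T23 (0.69), all class I heavy chains, and Tapbp, a chaperone of their loading (0.29). This count was 2 without WT Cre replicate 1 and 12 with only the groups compared, and Tapbp did not pass without any one of the 6 libraries.

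The interferon-stimulated response element, the DNA element through which many of these genes are switched on, was searched as GAAANNGAAA on both strands of the same 250-base windows. It occurred in 978 of 32851 windows (2.98%) and in 3.04% of the tested genes that had a window. Of the 38 interferon-stimulated genes 28 had a window, and 15 of these (53.6%) held the letters. They were in 9 of 17 windows of higher genes (52.9%) and in 6 of 11 windows of genes that did not pass (54.5%). The windows of Stat2, Gbp2 and Ifit3 are shown as examples from the 9 windows of higher genes that hold the letters. The letters are in capitals and read TTTCNNTTTC where the other strand carries them (RefSeq, GRCm38.p6, plus strand).
Stat2, chr10:128270248-128270497: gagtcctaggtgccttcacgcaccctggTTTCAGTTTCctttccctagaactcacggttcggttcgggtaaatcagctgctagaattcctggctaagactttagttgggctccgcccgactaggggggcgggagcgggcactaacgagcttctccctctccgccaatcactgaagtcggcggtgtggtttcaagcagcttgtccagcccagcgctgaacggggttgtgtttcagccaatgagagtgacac
Gbp2, chr3:142620413-142620662: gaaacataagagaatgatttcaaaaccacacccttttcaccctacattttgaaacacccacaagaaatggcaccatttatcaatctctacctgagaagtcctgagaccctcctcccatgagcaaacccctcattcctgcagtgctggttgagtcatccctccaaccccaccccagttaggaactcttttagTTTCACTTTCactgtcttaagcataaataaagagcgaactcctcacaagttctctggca
Ifit3, chr19:34583279-34583528: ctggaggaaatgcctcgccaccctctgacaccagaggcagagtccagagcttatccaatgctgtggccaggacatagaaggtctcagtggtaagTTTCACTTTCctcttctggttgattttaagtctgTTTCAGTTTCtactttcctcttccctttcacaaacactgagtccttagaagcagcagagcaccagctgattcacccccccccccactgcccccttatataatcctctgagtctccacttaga
Stat2 stood at 130, 116 and 132 CPM in Rassf1a Cre and 73.0, 87.0 and 78.2 CPM in WT Cre. Gbp2, an interferon-induced GTPase, stood at 18.0 to 22.4 CPM in Rassf1a Cre and 13.9 to 14.5 CPM in WT Cre (0.53), and Ifit3, which binds foreign RNA complexes, at 17.5 to 25.6 CPM and 9.64 to 11.1 CPM in the same order (1.01). A match says only that these letters are in the window.

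**Figure D5:**
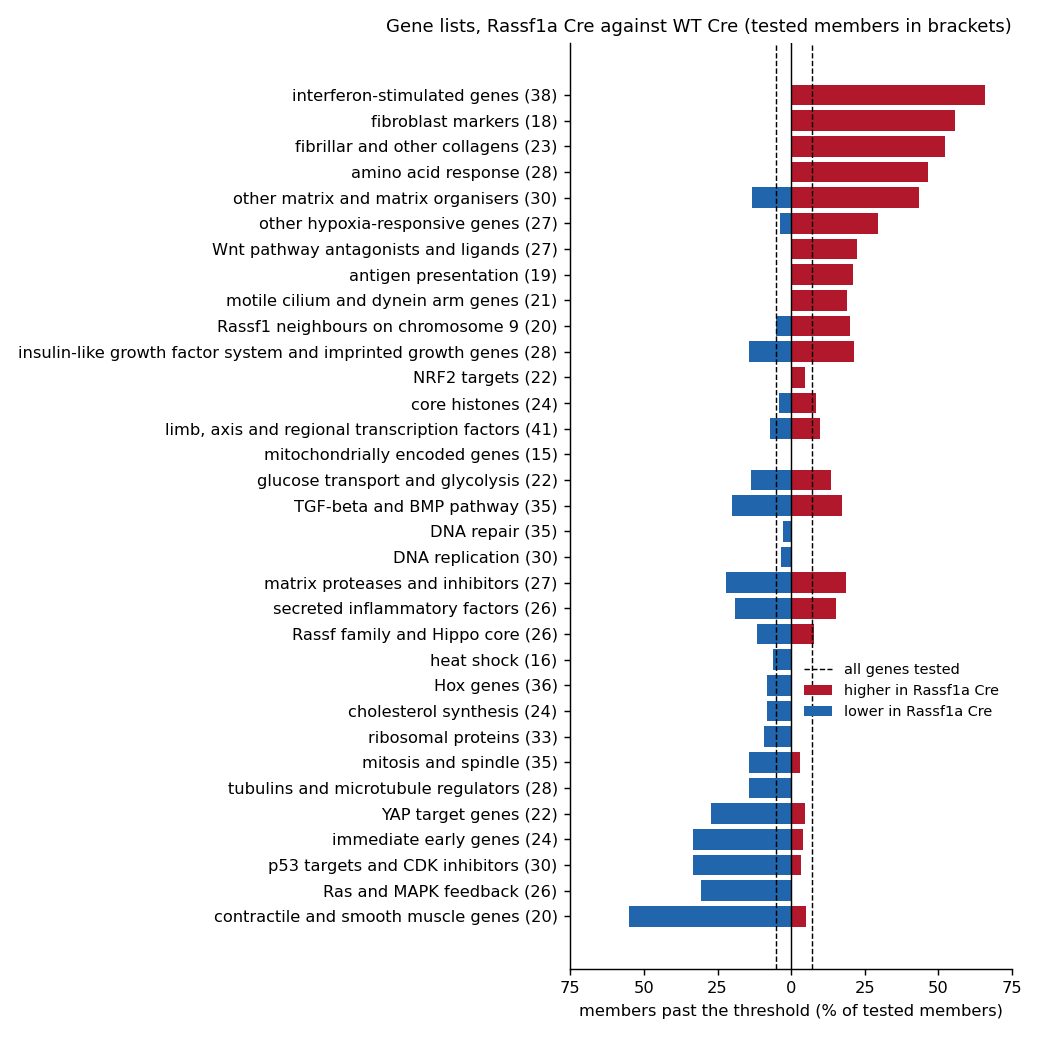
Share of tested members past the threshold in Rassf1a Cre against WT Cre for each gene list with at least 15 tested members, with higher members to the right in red and lower members to the left in blue; dashed lines mark the 7.09% higher and 5.30% lower of all genes tested. Interferon-stimulated genes stand at the top and contractile genes at the bottom.

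Of 23 collagen genes tested, 12 were higher and none lower (52.2%, against 12.4% of all genes tested). Their median was 0.26, and 5 lay below 0. Col5a3, a minor chain of type V collagen, stood at 229, 245 and 222 CPM in Rassf1a Cre and at 79.8, 90.8 and 101 CPM in WT Cre (1.36, SE 0.11, adjusted p = 7.49e-09). Col15a1, a basement membrane collagen, had 28.5 to 30.2 CPM in Rassf1a Cre and 11.3 to 13.9 CPM in WT Cre (1.19). The abundant fibrillar chains differed less, with Col3a1 at 0.71 and Col1a2 at 0.30, and Col6a1 (0.50) and Col6a2 (0.64) of the microfibrillar type VI were between these. Between the GFP libraries 17 of the 23 were higher and none lower, and between Vhl/Rassf1a Cre and Vhl Cre 6 were higher and 5 lower.

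Other matrix genes went in both directions, with 13 of 30 higher and 4 lower (56.7%, against 12.4% of all genes tested). Besides Eln, the elastic fibre genes Fbn2 (0.81), Fbln5 (0.40), Fbn1 (0.31), Mfap4 (0.69) and Mfap5 (0.56) were higher, as were the small proteoglycans Dcn (0.64), Lum (1.26) and Aspn (0.89). Fn1, the fibronectin gene (-0.14), and Sparc (-0.15) were lower by little. Fibroblast markers, which share members with both lists, had 10 of 18 higher and none lower (55.6%). They summed to 36199 to 37136 CPM in Rassf1a Cre and 28481 to 32005 CPM in WT Cre. Among them Pdgfra, a growth factor receptor, had 170 to 172 CPM in Rassf1a Cre and 112 to 119 CPM in WT Cre (0.57), and Fap, a surface protease, 6.89 to 8.16 CPM and 3.25 to 3.82 CPM in the same order (1.04). In a bulk sample fewer cells of a type and less RNA per cell cannot be told apart. Secreted proteases and inhibitors had 5 of 27 higher and 6 lower (40.7%). Mmp13 (0.98) and Plat (0.53) were higher, and Plau, the urokinase gene (-0.66), was lower.

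Contractile and smooth muscle genes had the largest share of lower members, 11 of 20, with 1 higher and a median of -0.23. Cnn1, calponin of smooth muscle, stood at 329, 329 and 309 CPM in Rassf1a Cre and at 409, 456 and 408 CPM in WT Cre (-0.40, SE 0.07, adjusted p = 0.000601). Myocd, the co-activator that drives this programme in smooth muscle, had 2.57 to 2.89 CPM in Rassf1a Cre and 3.86 to 4.34 CPM in WT Cre (-0.59). Acta2 (-0.20), Actg2 (-0.32), Mylk (-0.35), Tpm1 (-0.23) and Des (-0.42) were lower, and Itga8 was higher (0.27). Without WT Cre replicate 2, or without Rassf1a Cre replicate 3, 7 members were lower and none higher. Skeletal muscle markers summed to 139 to 149 CPM in Rassf1a Cre and 199 to 244 CPM in WT Cre, with 1 of 6 higher and 2 lower, or 1 lower alone without WT Cre replicate 2, and their part in the result was not tested. Between the GFP libraries 14 of the 20 were lower and none higher, and between Vhl/Rassf1a Cre and Vhl Cre 9 were higher and 2 lower.

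Of 26 Ras and MAPK feedback genes, which report growth factor signalling, none was higher and 8 were lower (30.8%, against 12.4% of all genes tested). The other 18 did not pass, and the median was -0.12. Dusp6, the phosphatase of ERK, stood at 38.3, 37.2 and 36.5 CPM in Rassf1a Cre and at 51.6, 52.6 and 54.2 CPM in WT Cre (-0.50, SE 0.05, adjusted p = 9.40e-08). Phlda1 (-0.77), Dusp4 (-0.55), Spry2 (-0.41) and Spry4 (-0.29), which also dampen or follow this pathway, were lower. Between the GFP libraries none of the 26 was higher and 10 were lower. Between Vhl/Rassf1a Cre and Vhl Cre 6 were higher and 4 lower. Immediate early genes, which serum and growth factors switch on within minutes, had 1 of 24 higher and 8 lower (37.5%). The lower ones included Fos (-0.30), Nr4a1 (-0.34) and Dusp1 (-0.37), and Egr3 was the higher one (0.59). Without 1 library the immediate early calls numbered 4 to 7. With Rassf1a Cre replicate 2 left out they were 4. They were 5 each without WT Cre replicate 1, WT Cre replicate 2 or Rassf1a Cre replicate 3. Between the GFP libraries none of the 24 immediate early genes was higher and 10 were lower. Between Vhl/Rassf1a Cre and Vhl Cre 8 of them were higher and 1 lower.

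Targets of p53 and inhibitors of cyclin-dependent kinases had 1 of 30 higher and 10 lower (36.7%, against 12.4% of all genes tested). Their median was -0.13. Between the GFP libraries 2 of the 30 were higher and 8 lower. Between Vhl/Rassf1a Cre and Vhl Cre 9 were higher and 3 lower. Perp, a junction protein of p53-driven death, had 20.4 to 21.9 CPM in Rassf1a Cre and 35.9 to 40.1 CPM in WT Cre (-0.81, adjusted p = 2.28e-06). Mdm2, the ubiquitin ligase of p53 (-0.34), Pmaip1, the death inducer NOXA (-0.56), Btg2 (-0.24) and Gdf15 (-0.62) were lower, and Cdkn2c, an inhibitor of CDK4 and CDK6, was higher (0.36). Il6 stood lower by 0.98 among the secreted inflammatory factors, of which 4 of 26 were higher and 5 lower (34.6%).

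Genes of the amino acid response are switched on by ATF4 when amino acids or folding capacity run short. Of 28 tested, 13 were higher and none lower (46.4%, against 12.4% of all genes tested), with a median of 0.25. Slc7a5, the large neutral amino acid transporter, had 144 to 151 CPM in Rassf1a Cre and 105 to 120 CPM in WT Cre (0.39, adjusted p = 9.16e-05). Aldh18a1 (0.37) and Pycr1 (0.48) of proline synthesis, Trib3, a pseudokinase (0.66), Asns, the asparagine synthetase (0.26), and Slc7a11, the cystine importer (0.62), were higher, and all these differences were below 0.7 on the log2 scale. Between the GFP libraries 19 of the 28 were higher and 1 lower, and between Vhl/Rassf1a Cre and Vhl Cre 5 were higher and 5 lower.

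Growth and patterning genes added some larger single differences. Igf2, the fetal growth factor (0.62), and H19, the non-coding RNA of the same imprinted locus (0.66), were both higher, as was Igfbp5 (0.94). H19 had 538 to 572 CPM in Rassf1a Cre and 347 to 353 CPM in WT Cre (adjusted p = 1.49e-10). In the Wnt list 6 of 27 were higher and none lower (22.2%, against 12.4% of all genes tested). Lgr5, a receptor of R-spondins (1.01), and Tcf7, a nuclear effector (0.82), led these 6. Msx1, a homeobox gene of limb and face, stood at 20.9 to 24.0 CPM in Rassf1a Cre and 8.30 to 8.81 CPM in WT Cre (1.36). Of 36 Hox genes none was higher and 3 were lower (8.33%). TGF-beta and BMP genes were divided, with 6 of 35 higher and 7 lower (37.1%). With only the groups compared, 9 were higher and 13 lower. Other hypoxia-responsive genes had 8 of 27 higher and 1 lower (33.3%), with Angptl4 at 0.69 and Epas1, which encodes HIF-2alpha, at -0.36. Glycolysis genes had 3 of 22 in each direction (27.3%). Without Rassf1a Cre replicate 3 the hypoxia count was 5 higher and none lower, and the glycolysis count 2 higher and 1 lower. Cholesterol synthesis, heat shock, NRF2, ribosomal protein and mitochondrially encoded genes had between 0 and 3 members past the threshold each. With only the groups compared in the fit, these counts were 7 for cholesterol synthesis, 4 for heat shock, 8 for NRF2 targets, 5 for ribosomal proteins and 6 for mitochondrially encoded genes.

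The 2 lines also differed in genes that mark sex and strain. All 4 tested Y-linked genes of the list were lower in Rassf1a Cre, with Ddx3y, an RNA helicase, at 23.8, 21.7 and 24.4 CPM in Rassf1a Cre and 51.5, 47.3 and 56.9 CPM in WT Cre (-1.15, adjusted p = 3.11e-07). Xist, the RNA that silences an X chromosome in female cells, was higher, at 302, 281 and 316 CPM in Rassf1a Cre and 178, 128 and 170 CPM in WT Cre (0.92, adjusted p = 0.00118). Each of the 6 libraries therefore held transcripts of both kinds. Ifi202b, an interferon-inducible gene whose presence varies between inbred strains, had 165 counts over the 3 Rassf1a Cre libraries and 0 in WT Cre, at least 45.1-fold higher against a floor of 3 counts over the group. Nnt, the nicotinamide nucleotide transhydrogenase that is mutated in a common strain, had 76.3 to 77.5 CPM in Rassf1a Cre and 48.7 to 50.1 CPM in WT Cre (0.64). The part of these differences in the results above was not tested.

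Fibroblast identity held in both groups, since Col1a1, Col1a2 and Vim had at least 159423 counts in every one of the 6 libraries. Of the markers of kidney proximal tubule, which the design note of the series names, 6 of 14 were tested, 2 higher and 2 lower, and the list summed to 279 to 305 CPM in Rassf1a Cre and 244 to 265 CPM in WT Cre. Most of that sum was Aqp1, a water channel (265 to 291 CPM in Rassf1a Cre and 226 to 245 CPM in WT Cre). Lrp2 and Cubn, the receptors for protein uptake, had 255 to 398 counts, whereas Slc34a1, the phosphate transporter of this segment, and Hnf4a had at most 1 count in any of the 6 libraries. Library totals were 38125582 to 55849586 counts in Rassf1a Cre and 34734254 to 38789701 counts in WT Cre, and the lowest of all 24 was 29934173. Markers of cartilage and bone summed to 226 to 263 CPM in Rassf1a Cre and 367 to 404 CPM in WT Cre, with Col2a1 lower (-0.95) and Sox6 higher (0.96), and mesothelial markers to 60.5 to 68.8 CPM and 74.8 to 88.3 CPM in the same order.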

How the data were processed

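Total RNA of mouse embryonic fibroblasts was sequenced in 24 libraries, 3 in each of 8 groups named by genotype and by Cre or GFP in the sample titles. The authors deposited 1 table of raw counts, with 45706 Ensembl gene IDs. Per the labels' protocols, a NucleoSpin kit gave the RNA and a TruSeq Stranded kit the libraries. The submitters' processing notes name Trimmomatic 0.38, STAR 2.5.2b and GRCm38. How reads were counted, on which strand and with what annotation is not given in the sources used here. Reads of antisense, overlapping or near-identical genes therefore cannot be told apart. Symbols and coordinates came from GENCODE M21 on GRCm38, which named 45143 of the genes. Promoter windows came from RefSeq on GRCm38.p6.

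Genes were kept by filterByExpr of edgeR 4.0.16 on the 8 groups (minimum count 10, minimum total 15), which left 16573. A quasi-likelihood model (glmQLFit, glmQLFTest) with TMM normalization and 1 mean per group covered the 24 libraries together in R 4.3.3, with 16 residual degrees of freedom and a common biological coefficient of variation of 7.73%. Two-sided p-values received the Benjamini-Hochberg adjustment across the 16573 genes, and 0.05 was the threshold. An adjusted p with no tool named comes from edgeR's quasi-likelihood test. Each SE was derived from a fold change and the F statistic of its test. CPM use TMM library sizes, and a value given for a gene in brackets is its log2 fold change. The model was tested on simulated data. Replicates within Rassf1a Cre and within WT Cre differed by more than sampling noise.

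Comparisons were Rassf1a Cre against WT Cre, Rassf1a GFP against WT GFP, Vhl/Rassf1a Cre against Vhl Cre, and the difference between the first and the second. Gene lists were described by counts and medians, with no test of a list. They held 1023 genes in 45 lists, of which 931 were tested, and the erythroid list had no tested member. Named genes were Rassf1, Vhl and Zmynd10; the 15 highest and 15 lowest past the threshold whose groups did not overlap, whose mean reached 5 CPM and whose symbol was no clone or pseudogene name; the listed neighbours of Rassf1; and, for every list, at most 4 genes that passed, by adjusted p. Degs2, Mpzl2, Cpne4 and other list members and copies beyond these were named after their values were seen. The members, lists and comparisons were chosen with earlier results of these data known. Alternatives used DESeq2's size factors inside edgeR, DESeq2 1.42.0 with its Wald test, all genes without the filter, just the libraries of the groups compared, all libraries but 2 deviating GFP ones, a minimum log2 fold change of 1, offsets corrected for GC content, the replicate number as a block, and each library left out in turn. Intervals for single counts are not given; SEs cover the spread between libraries. Results for some genes are not reported here.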

Additional observations from a re-analysis of the deposited data

Results flagged for a closer look

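Zmynd10 is listed here because its difference between Rassf1a and WT cells was not the same in the Cre and in the GFP libraries, by a test of that difference itself. The difference between the Cre contrast and the GFP contrast was 3.99 on the log2 scale (SE 0.55, unadjusted p = 2.98e-07, adjusted p = 0.00494 in edgeR's quasi-likelihood test). Zmynd10 was higher in Rassf1a Cre than in WT Cre by 2.51 on that scale and lower in Rassf1a GFP than in WT GFP, with a log2 fold change of -1.48. All 3 Rassf1a Cre libraries lay above all WT Cre libraries, and all 3 Rassf1a GFP libraries below all WT GFP libraries. Within the Rassf1a line, Rassf1a Cre stood above Rassf1a GFP by 3.17 (adjusted p = 1.62e-05). The counts behind these values were 37 to 78 in Rassf1a Cre and 4 to 6 in Rassf1a GFP. Rassf1a GFP replicate 1, which stands apart from most libraries over all genes, held 5 counts of Zmynd10, against 4 and 6 in the other two of its group.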

How the results depend on the processing

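Between Rassf1a Cre and WT Cre, 2054 genes passed; 3097 passed when just the 6 libraries were fitted, 3307 without the 2 GFP libraries that stand apart, 3272 with GC-corrected offsets and 118 with a minimum log2 fold change of 1, where 92 were higher and 26 lower (78.0% higher, against 57.2% of the 2054). Leaving out 1 library gave 1409 to 1682. No gene of the 2054 that passed under any alternative changed its direction there. Deviations of same-numbered samples showed no shared part, with correlations of -0.02, 0.03 and 0.0010. These values cannot show whether the samples were prepared in pairs. With the number as a replicate block 1944 genes passed, 1913 of them among the 2054. Between Rassf1a GFP and WT GFP the count of 2664 became 1466 with only the groups compared and 139 with the minimum, and 2003 to 2579 without 1 library; with no filter 1304 were higher and 1537 lower (45.9% higher, against 58.4%). Between Vhl/Rassf1a Cre and Vhl Cre the 3119 became 4750 and 90 under the same 2 settings and 2379 to 2496 without 1 library.

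For the difference between the Cre and GFP contrasts, the single gene became 22 with no filter, 0 with only the groups compared and 2 without the 2 GFP libraries, and 0 to 1 without 1 library. For Zmynd10 that difference was 4.00 with only the groups compared (adjusted p = 0.403) and 3.32 to 4.56 without 1 library; its Cre contrast was 2.22 to 3.07 without 1 library and passed each time. Rassf1 passed with size factors of DESeq2 (-0.27), with no filter (-0.26), with only the groups compared (-0.27), without the 2 GFP libraries (-0.27) and in the Wald test of DESeq2 (-0.27), and lay between -0.30 and -0.23 without 1 library. Genes near 0 changed sign without 1 library, namely Cish (-0.13 to 0.051), Slc38a3 (-0.14 to 0.037), Tusc2 (-0.0056 to 0.103) and Tmem115 (-0.040 to 0.055), the last also with no filter (0.0043). Outside the minimum fold setting, 2244 of 2353 recomputed values of named genes kept direction and side of the threshold, 94 no longer passed, 8 newly passed and 7 changed sign. Among the lists, with only the groups compared 1 Hox gene was higher and 6 lower and 3 DNA replication genes were lower, with GC-corrected offsets 3 collagen genes were lower, 9 secreted protease and inhibitor genes were higher and 8 lower, and without the 2 GFP libraries 20 amino acid response genes were higher. The cause of these changes was not tested.

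With 3 libraries a group, genes such as Lsmem2 or Zmynd10 rest on under 100 counts per library, and their differences are less precise than those of abundant genes.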
